A study of Mus musculus with 8 samples.

Results

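CD45+/Sca1+ cells of muscle that had been injured in mice with a bone marrow (BM) transplant were compared with cells of the same sort from resting muscle. The comparison takes 4 of the 8 arrays of the series by their titles, 2 in each group, and covers every probe set that is not a control. A probe set is a group of short probes on the array that reads 1 transcript, and its value is an intensity. Of 22626 such probe sets, 16289 passed a filter on low intensity, and they name 9513 genes, of which 3544 are read by at least 2 of them. Weight was given to genes whose several probe sets agreed. All mice were C57BL/6 and 6 to 8 weeks old. The labels give no treatment for resting muscle, whereas the transplanted group had both cardiotoxin, a snake venom toxin that destroys muscle fibres, and a marrow transplant. The 2 groups thus differ by injury and by transplant together. The other 4 arrays were cardiotoxin-injured muscle of mice without a transplant (2 arrays, called untransplanted) and bone marrow (2 arrays, no treatment given), and they entered the fit to share 1 estimate of the spread. Time after injury, donor or host origin of the cells, conditioning before the transplant and pooling of animals are not stated in the labels used.

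CD45, encoded by Ptprc, marks cells of the blood lineage. Sca1 is carried by blood stem and progenitor cells, and also by many lymphocytes, by endothelial and stromal cells of muscle, and by myeloid cells after exposure to interferon. After muscle injury, neutrophils and then monocytes leave the blood. The monocytes are drawn by chemokines such as Ccl2 through the receptor Ccr2, and they become macrophages that engulf dead fibre, digest it in lysosomes, handle its lipid and release factors that act on the muscle's own stem cells. Resting muscle holds resident macrophages with scavenger receptors such as Cd163 and Lyve1.

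Each array was scaled before deposit to nearly the same trimmed mean, and the median intensity was 56.3 and 59.7 on the transplanted injured arrays and 67.1 and 75.8 on the resting ones. The brightest probe set read 27389 and 23258 on the transplanted arrays against 14440 and 13615 on the resting arrays. The ratio of 3' to 5' probe sets of Gapdh, which rises when RNA is broken or copied incompletely, was 0.882 and 0.868 on the transplanted arrays and 46.9 and 13.6 on the resting arrays, and for beta-actin 1.19 and 1.18 against 19.0 and 10.1. On the untransplanted injured arrays the Gapdh ratio was 0.833 and 0.808, near that of the transplanted arrays. Bone marrow, at 24.4 and 10.7, had high ratios like resting muscle. RNA integrity and group therefore cannot be told apart in the comparison with resting muscle, and its part in the differences below was not tested. The 2 transplanted arrays correlated at r = 0.950 and the 2 resting arrays at r = 0.895 across probe sets on the log2 scale. Array weights, taken from an alternative fit, are smaller where the arrays of a group differ more. They were 0.36 on each resting array, 0.77 on bone marrow, 1.82 on transplanted and 1.98 on untransplanted injured arrays. The 1 estimate of the spread is thus shared by groups of unequal spread. The sort marker Ptprc read 6644 and 5204 on the transplanted arrays and 6476 and 4924 on the resting ones (log2 fold change 0.06, SE 0.21, limma adjusted p = 0.849), with overlapping groups. The annotation used names no probe set for Ly6a, the gene of Sca1. The labels do not say that arrays of a group are separate animals, so the p-values cover the spread of these arrays alone, and that spread may be technical. In sorted bulk RNA, fewer cells of a type and less RNA per cell cannot be told apart.

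A large share of the array differed between the groups. At a limma adjusted p under 0.05, 2268 probe sets were higher and 3015 lower in transplanted injured muscle, 32.4% of those tested. With the brightest probe set standing for each gene, 1001 of 9513 genes were higher (10.5%) and 1976 lower (20.8%). The counts of the gene lists below are to be read beside these shares. The lists were chosen with earlier results of these data known, so their counts and medians describe the data and are not independent support. The median log2 fold change of all genes was -0.31. Over probe sets that median was -0.19 with the deposited scaling, -0.07 after quantile normalization and 0.09 after centring the arrays on their medians. Of the called probe sets 42.9% were higher with the deposited scaling and 59.0% after median centring, so the split between rises and falls follows the scaling. The count depended on the transplanted arrays: without the first it was 958 higher and 1444 lower, without the second 965 and 1529, and without the second resting array 3423 and 3321.

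Probe sets of 1 gene agreed for a minority of genes. Of the 3544 genes with 2 or more tested probe sets, 119 had all of them higher and 172 had all of them lower, while 1408 had none past the threshold. In a further 820 genes some probe sets were higher and none lower, in 844 some were lower and none higher, and in 181 probe sets of the same gene were called in opposite directions. Where the brightest probe set was higher, in 388 genes, the second brightest was also higher in 150 and lower in 22, and it had the same sign in 70.6%. Where the brightest was lower, in 818 genes, the second was also lower in 247 and higher in 54, with the same sign in 69.4%. Agreement of all probe sets at a 2-fold difference or more was reached by 108 of the 119 genes that rose and 166 of the 172 that fell. The agreeing sets were also smaller with 1 transplanted array, at 30 and 68 genes without the first and 28 and 64 without the second, and the agreeing rises numbered 261 without the second resting array.

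**Figure D1:**
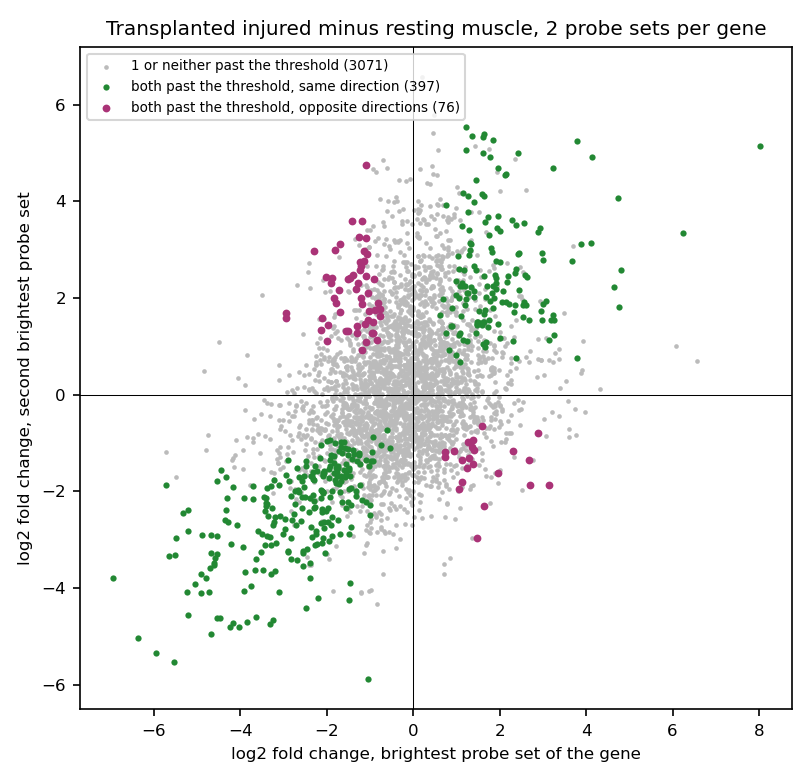
Log2 fold change (transplanted injured minus resting muscle) of the brightest probe set of a gene (x axis) against that of its second brightest (y axis), 1 point for each of 3544 genes. Both probe sets passed the threshold in the same direction in 397 genes (green) and in opposite directions in 76 (purple), and 3071 genes (grey) had 1 or neither past it.

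Among genes whose probe sets all rose, the 12 with the largest change in their weakest probe set included genes of macrophages, of the interferon response and of the lysosome. Thbs1, thrombospondin 1, a matrix protein that activates TGF-beta and binds CD36 and CD47, read 2427 and 3747 on the transplanted arrays and 305 and 92.1 on the resting arrays (log2 fold change 4.13, SE 0.74, adjusted p = 0.00539). Its second probe set read 1481 and 1910.4 against 60.9 and 44.0 (log2 fold change 4.92, adjusted p = 0.000235). Both probe sets were above every resting value on both transplanted arrays. These 12 genes were chosen for a lack of overlap, so separate groups add no support. The same holds for genes named below for a small p or after their values were seen. Ncf1, a cytosolic subunit of the NADPH oxidase that makes superoxide in phagocytes, read 1151 and 1066 against 47.0 and 109 (log2 fold change 3.87, SE 0.41, adjusted p = 0.000836), and its second probe set rose by 3.12. Cxcl16, a transmembrane chemokine that also binds oxidised lipid, read 2229 and 2180.4 against 198 and 439.7 (log2 fold change 2.88, SE 0.38, adjusted p = 0.00182), with 3.36 in the second probe set. Glrx, glutaredoxin, which reduces protein disulfides with glutathione, had probe sets of unequal size: 1657 and 1855 against 349.7 and 295 in the brighter one (log2 fold change 2.43, adjusted p = 0.0009) and 1396 and 1707 against 41.1 and 47.8 in the other (log2 fold change 5.0, adjusted p = 0.000223). In both Glrx probe sets the transplanted arrays were above the resting ones. Alcam, an adhesion molecule that binds CD6 on T cells, read 977 and 872 against 194 and 147 (log2 fold change 2.42, adjusted p = 0.00196), and Gng2, a G protein gamma subunit, 1394 and 1231 against 192 and 248 (log2 fold change 2.56, adjusted p = 0.00103). Adap2, which binds phosphoinositides, read 475 and 473 against 67.2 and 16 (log2 fold change 3.66, adjusted p = 0.00576). The zinc finger gene Zfp825 was dim, at 111 and 108 against 14.1 and 22.2, which is at least 2.69-fold. Here and below, "at least" sets a group whose arrays are both under the filter value of 38.4 at that value. 38.4 is not a limit of detection. Txnrd2, the mitochondrial thioredoxin reductase, had the weakest support, at 172 and 182 against 2.87 and 74.1 (log2 fold change 2.97, adjusted p = 0.0424), and lost its call whenever 1 array other than a resting one was left out (log2 fold change 2.93 to 3.01). Gla, Zbp1 and Stat2 complete the 12 and are described with their groups.

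**Figure D2:**
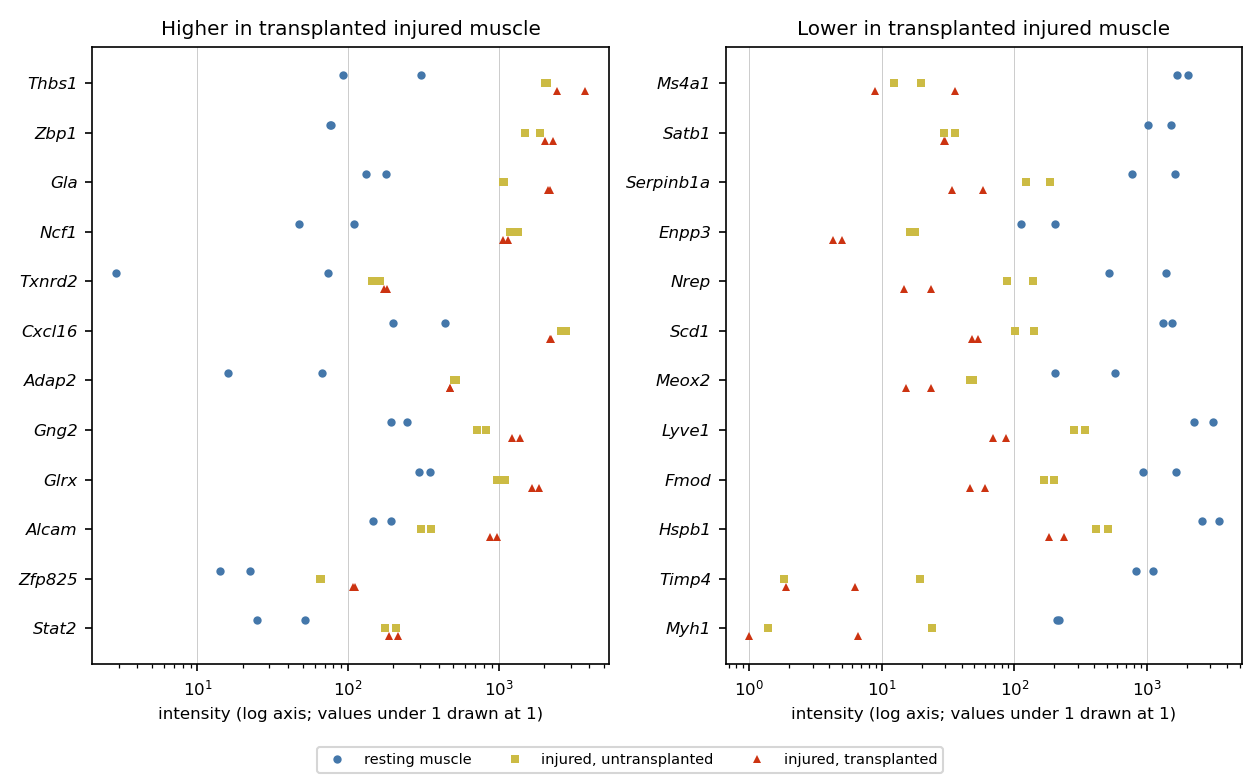
Intensity (log axis) of the brightest probe set on each array for the 12 largest agreeing rises (left) and the 12 largest agreeing falls (right), 2 points per group: resting muscle (circles), untransplanted injured muscle (squares) and transplanted injured muscle (triangles). The transplanted and resting points do not overlap for any of the 24 genes, which were chosen for their difference, and Thbs1, for example, lies at 2427 and 3747 against 305 and 92.1.

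Most macrophage genes rose. Of 20 tested genes of monocytes and macrophages, 16 were higher and 0 lower, with a median log2 fold change of 1.85 beside -0.31 for all genes, and their summed intensity was 124791 and 114295 on the transplanted arrays against 33696 and 43399 on the resting ones. Itgam, the CD11b chain of complement receptor 3, read 1148 and 1164 against 14.3 and 37.9, at least 27.4-fold (log2 fold change 5.39, SE 0.43, adjusted p = 0.000393). Ccr2, the receptor by which monocytes follow Ccl2, read 2368 and 3027 against 140 and 59.1 (log2 fold change 4.81, adjusted p = 0.00048). Fcer1g, the shared gamma chain of activating Fc receptors, read 10120 and 9827 against 1113 and 1544 (log2 fold change 2.92, SE 0.22, adjusted p = 0.000317). In all 3 genes both transplanted arrays lay far above both resting arrays. The receptor Fcgr1, which binds monomeric IgG, rose by 3.70 and Fcgr4 by 2.91, and Cybb, the catalytic subunit of the phagocyte oxidase, by 3.32. Ms4a7, a membrane protein of macrophages, read 8812 and 7470.1 against 1146 and 1200.2 (log2 fold change 2.79, adjusted p = 0.000362). Both probe sets of its relative Ms4a6d rose (log2 fold change 1.85 and 2.26), although the brighter one missed the threshold without either transplanted array (log2 fold change 1.83 and 1.86). The F4/80 gene Adgre1 rose by 1.85 and Lyz2, lysozyme, by 0.89, and Csf1r, the receptor for the growth factor of macrophages, read 11611 and 9009 against 7158 and 9006 (log2 fold change 0.35, adjusted p = 0.203), with none of its 3 probe sets past the threshold. Spi1, the transcription factor PU.1, read 1259 and 1236 against 117 and 1069.7 and Cx3cr1 486 and 391 against 419 and 112, and neither passed. With 1 transplanted array the count was 12 or 11 of 20.

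Genes of resident macrophages went both ways. Of 16 tested scavenger and resident genes, 3 were higher and 6 lower. Lyve1, a hyaluronan receptor of tissue macrophages that also marks lymphatic vessels, read 86.8 and 69.0 on the transplanted arrays and 3149.9 and 2276 on the resting ones (log2 fold change -5.04, SE 0.51, adjusted p = 0.000772), and its second probe set fell by 3.90. Cd163, which takes up complexes of haemoglobin with haptoglobin, read 160.3 and 169 against 1295 and 1530.4 (log2 fold change -3.07, SE 0.30, adjusted p = 0.000692). Igf1, a growth factor that muscle macrophages make, fell in 2 of 3 probe sets (log2 fold change -2.59 in the brightest), F13a1, the coagulation factor XIII A chain, by 1.40, and the galactose lectin Clec10a by 1.71. Msr1, scavenger receptor A, went the other way in all 4 of its probe sets, with 2736 and 2391 against 258 and 405 in the brightest (log2 fold change 2.97, adjusted p = 0.00193) and log2 fold changes of 1.73 to 4.67 over the others. The chemokine Ccl8 read 8209.9 and 9739 against 1287 and 2564 (log2 fold change 2.30, adjusted p = 0.00228), and Folr2, a folate receptor, rose by 1.08. Mrc1, the mannose receptor CD206, at 3476 and 3805 against 5495 and 5070.2, Stab1, at 1171 and 956 against 368 and 1907, and Selenop, at 9569 and 8484 against 9259.7 and 7727, did not pass. The median of the 16 genes was -0.36, and without the second transplanted array 3 of them fell. Without the first resting array the median was -0.95 with 8 falls, and without the second -0.04 with 5.

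Genes induced by interleukin 4 and interleukin 13, which mark alternative activation, were mostly lower. Of 12 tested, 8 fell and 1 rose, with a median log2 fold change of -1.65. Retnla, the secreted protein Fizz1, had one of the widest gaps on the array, with 97.8 and 103 on the transplanted arrays against 10803 and 9529 on the resting arrays (log2 fold change -6.61, SE 0.28, adjusted p = 0.000135). It was among the brightest probe sets of resting muscle and stood at 103 and 115 in bone marrow. The chemokine genes Ccl24, at 110.3 and 112 against 528 and 699 (log2 fold change -2.41, adjusted p = 0.00168), Ccl17, at 26.2 and 14.7 against 194 and 186 (at least 4.58-fold), and Ccl22 (log2 fold change -3.40) fell. Socs2, a suppressor of cytokine signalling, fell in both probe sets (log2 fold change -2.05 and -3.27), the first of which missed the threshold without the first transplanted array (-1.67). Chil3, the lectin Ym1, which neutrophils and their precursors also make, fell by 0.98. Arg1, arginase 1, was the member that rose, at 1827 and 1925 against 194 and 219 (log2 fold change 3.16, SE 0.45, adjusted p = 0.00227). Retnla and Arg1, both used as markers of this state, therefore moved in opposite directions. Without the first transplanted array 4 of the 12 fell, and without the second resting array 3 rose.

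Genes of lipid handling and the lysosome were higher or did not pass with the deposited scaling, with none lower. After quantile normalization 1 gene of each list was lower. Of 18 genes of lipid-laden macrophages, 10 were higher and 0 lower (median log2 fold change 2.0), and of 21 lysosomal genes 12 were higher and 0 lower (median 1.61, or 1.03 after quantile normalization). Gpnmb, a glycoprotein of phagocytes with a heavy lysosomal load, read 6903 and 7366 against 86.4 and 390.3 (log2 fold change 5.24, SE 0.60, adjusted p = 0.00107). Mmp12, the macrophage elastase, read 1984 and 1575 against 45.5 and 60.7 (log2 fold change 4.97, SE 0.33, adjusted p = 0.000235). Lgals3, galectin 3, read 24715 and 20633 against 2809 and 4591 (log2 fold change 2.65, adjusted p = 0.000981). These 3 genes, chosen by small p, were higher on both transplanted arrays than on either resting array. Both probe sets of the fatty acid carrier Fabp5 rose (log2 fold change 1.66 and 3.58), as did Plin2, which coats lipid droplets (2.22), Nr1h3, the oxysterol receptor LXR-alpha (2.08), and Trem2, a lipid-sensing receptor, at 3002 and 3247 against 3.94 and 131 (log2 fold change 6.58, adjusted p = 0.00359). The resting arrays of Trem2 lay far apart and the first was under 38.4, so the size of its rise is imprecise. Apoe also shows how far apart the resting arrays lay for some genes, with 195 and 11169 on them. It read 16161 and 15883 on the transplanted arrays (limma adjusted p = 0.106). Lpl, lipoprotein lipase, did not pass (6665 and 5194 against 6546 and 4272).

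Within the lysosome, 5 of the 9 genes with several tested probe sets had all of them higher. Gla, alpha-galactosidase A, read 2139 and 2185 against 131 and 178 (log2 fold change 3.79, SE 0.30, adjusted p = 0.000367), and its second probe set 335 and 419 against 4.35 and 8.04, at least 9.0-fold. Atp6v1a, the catalytic subunit of the proton pump that acidifies the lysosome, read 3784 and 3918 against 441 and 360.4 (log2 fold change 3.26, SE 0.32, adjusted p = 0.000692), with 1.55 in the second probe set. The protease Ctsz, cathepsin Z, rose in all 3 probe sets (log2 fold change 2.36, 1.85 and 1.27), and Gusb, beta-glucuronidase, in both (2.14 and 4.56). The proteases Ctsl (2.64), Ctsb (1.64) and Ctss (1.26), the sphingolipid activator precursor Psap (1.62) and the cholesterol transporter Npc1 (2.35) rose as well. Lamp2, Hexa and Grn did not pass in their brightest probe sets (log2 fold change -0.19, -0.21 and -0.24), and Ctsd, cathepsin D, had resting values of 411 and 6058 against 11198 and 9167 (adjusted p = 0.0707). Without the first transplanted array 6 lipid genes were higher, and without the second 7 lysosomal genes.

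Most interferon-induced genes rose. Of 21 tested, 16 were higher and 0 lower, and the median log2 fold change was 2.34 (2.11 when values below 38.4 are raised to it). Type I interferon acts on its target genes through the interferon-stimulated response element, whose core repeats GAAA with a gap of 2 bases. Promoters of the 3 rising genes with the smallest p among those that hold this core are printed to show where it lies. The window is the 250 bases before the transcription start, from RefSeq on GRCm38.p6, printed 5' to 3' along the gene's strand, with each match in capitals, which is GAAA, any 2 bases and GAAA again, or TTTC repeated in the same way where the match lies on the other strand. Ifit3 lies at chr19:34583279-34583528 (plus strand), Irgm1 at chr11:48871421-48871670 (minus strand) and Bst2 at chr8:71537473-71537722 (minus strand).
Ifit3: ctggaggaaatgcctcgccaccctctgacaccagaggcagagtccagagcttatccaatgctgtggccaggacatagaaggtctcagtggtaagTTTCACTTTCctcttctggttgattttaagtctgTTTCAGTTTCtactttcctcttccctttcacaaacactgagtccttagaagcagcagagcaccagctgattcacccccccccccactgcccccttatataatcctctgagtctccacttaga
Irgm1: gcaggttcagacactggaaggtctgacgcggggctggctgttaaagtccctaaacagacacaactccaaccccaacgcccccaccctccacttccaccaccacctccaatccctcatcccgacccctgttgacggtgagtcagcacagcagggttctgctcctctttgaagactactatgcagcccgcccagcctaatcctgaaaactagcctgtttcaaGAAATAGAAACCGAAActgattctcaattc
Bst2: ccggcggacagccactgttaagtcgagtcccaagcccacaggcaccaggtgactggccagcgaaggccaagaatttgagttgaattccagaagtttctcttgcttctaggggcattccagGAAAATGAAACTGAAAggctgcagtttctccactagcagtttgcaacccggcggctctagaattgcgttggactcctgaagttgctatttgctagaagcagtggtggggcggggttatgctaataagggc

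Each of these promoters holds 2 matches. In Irgm1 and Bst2 they overlap and make a run of 3 GAAA repeats, which begins 30 bases before the start in Irgm1 and 130 bases before it in Bst2, whereas in Ifit3 the matches are separate, at 156 and 122 bases. Ifit3, which binds viral RNA in a complex with its relatives, read 3246 and 3018 on the transplanted arrays against 407 and 521 on the resting arrays (log2 fold change 2.75, SE 0.25, adjusted p = 0.000522). Irgm1, a GTPase that acts against intracellular microbes, read 1075 and 1026 against 231 and 248 (log2 fold change 2.11, adjusted p = 0.00155). Bst2, tetherin, which holds budding virus at the cell surface, read 3245 and 2352 against 90.5 and 339 (log2 fold change 3.94, adjusted p = 0.00182). All 3 were higher on both transplanted arrays, and the resting arrays of Bst2 lay furthest apart. Of the 16 genes that rose, 12 had a promoter in the RefSeq table and 8 of these held the core (66.7%), as did 3 of the 5 tested genes that did not pass (60%), beside 2.98% of all 32851 promoters and 3.46% of all 27025 genes. A match describes the sequence and is neither a site nor a cause.

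Several other members had wide gaps. Zbp1, a sensor of Z-form nucleic acid, read 2020.3 and 2278 against 76.4 and 77.1 (log2 fold change 4.73, SE 0.29, adjusted p = 0.000223), and its second probe set rose by 4.07. Stat2, a transcription factor of type I interferon signalling, rose in both probe sets, at 214 and 187 against 25 and 51.6 in the first (log2 fold change 2.34, adjusted p = 0.00764), which missed the threshold without the first transplanted array (2.25), and at 2.52 in the second. Usp18, which removes the ubiquitin-like ISG15 and damps interferon signalling, read 1897 and 1726 against 301 and 254 (log2 fold change 2.69, adjusted p = 0.00113). The transcription factor Irf7 rose by 3.24, the antiviral GTPase Mx1 by 2.92, the RNA-degradation activators Oas1a by 2.37 and Oas2 by 1.53, and the chemokine Cxcl10 by 1.73. The 5 that did not pass were Ifit1 at 946 and 770.2 against 351 and 657, the RNA sensor Ifih1 at 1757 and 1449 against 1333 and 981, Igtp at 865 and 911 against 570.2 and 781, Ifi47 at 2388 and 1958 against 1727 and 1237, and Gbp3 at 186 and 370 against 899.6 and 278. Gbp2, of the same GTPase family, rose by 1.37. With 1 transplanted array the count was 11 or 12 of 21.

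Chemokines of monocytes and the interleukin 1 family rose. Of 23 tested cytokine and chemokine genes, 9 were higher (Ccl2, Ccl3, Ccl7, Ccl9, Ccl12, Cxcl16, Il1b, Il1rn and Il18) and 3 lower. Ccl2 read 9842 and 9643 against 1509 and 1277 (log2 fold change 2.81, SE 0.22, adjusted p = 0.000362), and its relatives Ccl7 and Ccl12, which share the receptor Ccr2, rose by 3.31 and 3.30. Ccl9 rose in both probe sets, by very different amounts: 9414 and 8430.4 against 3721 and 3868 in the brighter (log2 fold change 1.23, adjusted p = 0.00683; 1.15 and no call without the first transplanted array) and 5875 and 6142 against 82.9 and 186 in the other (log2 fold change 5.55, adjusted p = 0.000358). The interleukin 1 system rose on both sides. Il1b read 8172 and 8124 against 2446 and 2056 (log2 fold change 1.86, adjusted p = 0.00105), and its natural antagonist Il1rn rose in all 3 probe sets, at 2127 and 2017 against 11.4 and 44.3 in the brightest (log2 fold change 6.25, SE 0.71, adjusted p = 0.00107) and by 3.34 and 1.79 in the others. The sizes for Il1rn thus ran from 3.45-fold to 76.0-fold over probe sets of 1 gene. Il6 fell by 1.56, Lif, a cytokine of the interleukin 6 family, by 3.23, and Ccl5, a chemokine of T and cytotoxic cells, by 1.97. Tnf, at 587 and 766 against 152 and 759, and the neutrophil attractants Cxcl1, at 917 and 1006 against 1485 and 1801, and Cxcl2, at 4953 and 3424 against 5807 and 7071, did not pass.

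Receptors for complement fragments rose. Of 11 tested complement genes, 4 were higher and 2 lower, with a median log2 fold change of 2.54. C3ar1, the receptor for the C3a fragment, rose in both probe sets, at 7740.3 and 6488 against 1086 and 1368 in the brighter (log2 fold change 2.54, SE 0.31, adjusted p = 0.00138) and by 1.86 in the other. Cfb, factor B of the alternative pathway, read 2420.5 and 2254 against 75.7 and 180.3 (log2 fold change 4.27, adjusted p = 0.00137), and C5ar1, the receptor for C5a, 312 and 418 against 8.63 and 56.6 (log2 fold change 3.72, adjusted p = 0.00537). Of the C1q chains, C1qb passed (log2 fold change 3.23), whereas C1qa, at 8630.2 and 9154 against 61.4 and 6301, did not, and its 2 resting arrays lay far apart. C2, of the classical pathway, fell by 2.24 and lost its call without the first transplanted array (-1.87), and the protease C1s1, which stromal cells make, fell by 2.40. Without the second resting array 7 complement genes were higher, and without the first the median was 0.50 (1.46 when a gene's probe sets are averaged).

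**Figure D3:**
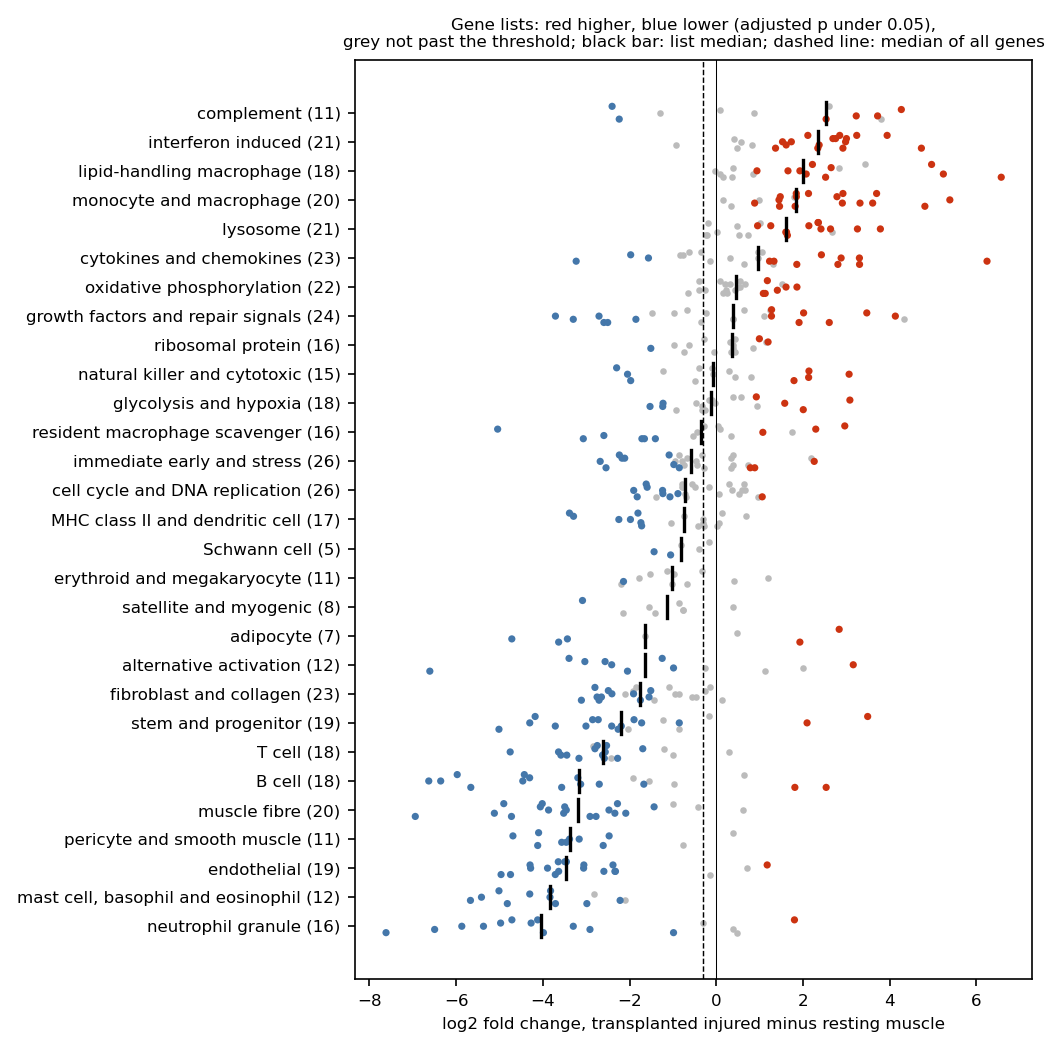
Log2 fold change (transplanted injured minus resting muscle, x axis) of the tested members of 29 gene lists (y axis, number tested in brackets), 1 point per gene by its brightest probe set; red and blue points passed an adjusted p of 0.05. List medians (black bars) run from -4.05 for neutrophil granule genes to 2.54 for complement genes, beside -0.31 for all genes (dashed line). Without the first resting array the complement median is 0.50, below those of macrophage (1.87), interferon (1.81) and lipid genes (1.38).

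Most genes of granulocytes and mast cells fell. Of 16 tested neutrophil granule genes 12 fell and 1 rose, and the median log2 fold change was -4.05 (-3.45 when values below 38.4 are raised to it). Ngp, a secondary granule protein, read 36.3 and 21.2 on the transplanted arrays against 7653 and 5115 on the resting arrays, at least 151-fold lower (log2 fold change -7.62, SE 0.35, adjusted p = 0.000135), and stood at 8722 and 9434 in bone marrow. Camp, the antimicrobial cathelicidin (13.3 and 35.4 against 3247 and 1698), and Ltf, lactoferrin (17.1 and 27.4 against 1702 and 1322), were likewise under 38.4 on both transplanted arrays, and primary granule genes fell with them: Mpo, myeloperoxidase, by 5.37 and Elane, neutrophil elastase, by 2.91. S100a8, a calcium-binding protein that neutrophils carry in bulk, read 186 and 169 against 6542 and 3444 (log2 fold change -4.71, adjusted p = 0.000472), Lcn2, which binds bacterial iron carriers, 51.2 and 65.2 against 1505 and 938 (log2 fold change -4.27, adjusted p = 0.000408), and Mmp9, gelatinase B, 91.6 and 62.3 against 824 and 735 (log2 fold change -3.30, adjusted p = 0.000668). Csf3r, the receptor for G-CSF, was the member that rose (781 and 734 against 106 and 428), and no rise was called without any 1 of the bone marrow or injured arrays.

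Of 12 tested mast cell, basophil and eosinophil genes 10 fell and 0 rose, with -3.83 as the median (-2.55 with raised low values), and their summed intensity was 386 and 306 on the transplanted arrays against 8753 and 9223 on the resting ones. Cpa3, the mast cell carboxypeptidase, read 53.8 and 55.5 against 3734 and 2378 (log2 fold change -5.67, SE 0.33, adjusted p = 0.000184). Cma1, a chymase, read 92.0 and 67.1 against 2402 and 2258 (log2 fold change -4.82, SE 0.30, adjusted p = 0.000223). Kit, the stem cell factor receptor that mast cells keep, read 1.02 and 12.9 against 298 and 289, and Ms4a2, the beta chain of the IgE receptor, 2.64 and 16.2 against 83.2 and 92.4. Kit and Ms4a2 were thus under 38.4 on both transplanted arrays, while Cpa3 and Cma1 were low but above it. Both probe sets of Gata2, a transcription factor of progenitors and mast cells, fell, at 31.9 and 25.8 against 664 and 618 in the brighter one (at least 15.2-fold, log2 fold change -4.30, adjusted p = 0.000355). Hdc, which makes histamine, fell by 3.83 in its brighter probe set, and its other one did not pass (0.82).

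Most B and T cell genes fell. Of 18 tested B cell genes 12 fell and 2 rose (median -3.16, and -2.67 with raised low values), and of 18 T cell genes 13 fell and 0 rose (median -2.60, and -2.09). Ms4a1, the CD20 gene, read 35.7 and 8.88 against 2034 and 1677, at least 43.9-fold lower (log2 fold change -6.36, SE 0.52, adjusted p = 0.000408), and its second probe set fell by 5.03. Jchain, which links antibody subunits in plasma cells, read 20.0 and 23.2 against 2221 and 2883, at least 60.3-fold lower (log2 fold change -6.63, adjusted p = 0.000135). Dntt, the nucleotide-adding enzyme of lymphoid precursors, fell in all 3 probe sets (log2 fold change -5.66, -3.33 and -2.36), and so did Ebf1, a factor that commits cells to the B lineage (-3.19, -3.64 and -2.29; the brightest lost its call without the first transplanted array, at -2.74). Ighm, the antibody heavy chain, fell in 7 of its 8 probe sets yet still read 1216 and 1131 in the brightest, against 2970.1 and 4706. The 2 B cell genes that rose, Cd72 (2.54) and Blnk (1.81), are also expressed by macrophages. Satb1, a chromatin organiser of lymphocytes and stem cells, was among the largest agreeing falls, at 29.9 and 29.6 against 1027 and 1532, at least 30.3-fold lower, with -4.56 and -4.59 in the other 2 probe sets.

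In T cells the receptor subunits fell. Cd3g read 3.20 and 32.6 against 867 and 216 (log2 fold change -4.75, adjusted p = 0.00556), Cd3e 47.2 and 5.22 against 318 and 206 and Cd3d 79.5 and 86.8 against 958 and 278. Lat, the scaffold that links the receptor to downstream enzymes, read 62.6 and 36.0 against 611 and 667 (log2 fold change -3.64, SE 0.43, adjusted p = 0.00115), Ctla4, an inhibitory receptor of activated and regulatory T cells, 30.0 and 22.5 against 392 and 266, at least 7.87-fold lower, and the adhesion receptor Cd2 85.9 and 91.8 against 471 and 683 (log2 fold change -2.62, adjusted p = 0.0013). The resting arrays differed in these genes, with summed T cell intensity of 9954 on the first and 5539 on the second beside 2911 and 2688 on the transplanted arrays. Il7r, the interleukin 7 receptor, did not pass, at 2131 and 1854 against 3029 and 853. Without the first and second transplanted array 8 and 7 of the 18 T cell genes fell.

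Genes of natural killer and cytotoxic cells went both ways. Of 15 tested, 4 were higher and 3 lower, beside 10.5% and 20.8% of all genes, and 8 did not pass. Gzmb, granzyme B, a protease that triggers death of target cells, read 1392 and 1246 against 163 and 145 (log2 fold change 3.07, SE 0.30, adjusted p = 0.000692). Gzma, granzyme A, read 1660.3 and 1659 against 487 and 289 (log2 fold change 2.13, SE 0.37, adjusted p = 0.00497). Both granzymes were higher on both transplanted arrays, and so were Prf1, perforin, which forms the pore they pass through (191 and 189 against 31.3 and 50.8, log2 fold change 2.14), and the activating receptor Klrk1 (1.79). Ifng, interferon-gamma, fell by 2.30 and Ccl5 by 1.97, and the T-box factor Eomes fell in its brighter probe set (-2.05) but read higher in the other (2.13, adjusted p = 0.0512). The natural killer genes Nkg7 (232 and 239.8 against 293 and 371), Klrd1 (254 and 356 against 404 and 256) and Ncr1 (47.8 and 50.5 against 30.3 and 22.9) did not pass. Without either transplanted array, 2 of the 15 were higher.

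Part of the genes of antigen presentation fell. Of 17 genes of MHC class II and dendritic cells 7 fell and 0 rose, beside 20.8% and 10.5% of all genes. The median log2 fold change was -0.74, but -1.31 without the first resting array and -0.08 without the second. Their summed intensity was 21216 and 38578 on the resting arrays beside 16352 and 16147 on the transplanted ones. H2-Eb1, an MHC class II beta chain, read 1998 and 1599.8 against 6418 and 7762 (log2 fold change -1.98, SE 0.23, adjusted p = 0.00107), and H2-Ab1 fell in 1 of 3 probe sets (-1.74). Ccr7, which guides dendritic cells to lymph nodes, read 66.6 and 47.4 against 378 and 908 (log2 fold change -3.29, adjusted p = 0.00419), and Flt3, the growth factor receptor of dendritic precursors, fell by 1.72. Zbtb46, a dendritic cell transcription factor, fell in both probe sets (11.1 and 18.3 against 83.0 and 83.1 in the brighter), but lost its call without any 1 of the 4 compared arrays (log2 fold change -1.96 to -2.53). H2-Aa, at 5713 and 5202 against 4442 and 6568, and the invariant chain Cd74, at 3744 and 4068 against 2655 and 8582, did not pass. The count of falls was 4 and 3 without the first and second transplanted array.

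Stem and progenitor genes were lower, though Sca1 marks such cells. Of 19 tested, 13 fell and 2 rose, with -2.19 as the median (-1.63 with raised low values). Cd34, a sialomucin of progenitors and endothelium, read 42.3 and 45.6 against 420.4 and 345 (log2 fold change -3.00, SE 0.35, adjusted p = 0.00115). Myb, a factor that immature blood cells need, fell in both probe sets (60.5 and 52.6 against 594 and 262 in the brighter), although without the second transplanted array that call was lost (-2.63). Hoxa9, a homeobox factor of progenitors, also fell in both, at 2.11 and 4.23 against 222 and 68.8 in the brighter, where the call was lost without either transplanted array (-3.96 and -4.39). Procr, the protein C receptor of stem cells and endothelium, fell by 2.26, and Slamf1 by 2.41. Runx1 rose in 2 of 5 probe sets and Cd48, found on most blood cells except stem cells, by 2.10, and without either transplanted array no rise was called in the list. Several of these genes, among them Kit, Gata2 and Tek, are also expressed by mast cells or endothelium, and which cells the falls come from was not tested. Of 11 erythroid and megakaryocyte genes 1 fell, beside 20.8% of all genes. The gene was Epor (-2.15), with no call under array weights or with the 4 compared arrays alone. Its call was also lost without the first transplanted array (-1.58) and without the second resting array (-1.36). The list median was -1.03, and -1.53 without the first resting array. Pf4 was bright on the 4 compared arrays (9385 and 7767 against 5447 and 7520).

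The sort for CD45 should exclude cells of vessels, connective tissue and muscle fibre, yet resting muscle held their transcripts and transplanted injured muscle held fewer. Of 19 tested endothelial genes 16 fell and 1 rose (median -3.46, and -2.94 with raised low values), of 11 pericyte and smooth muscle genes 9 fell (median -3.38, or -2.40), and of 20 muscle fibre genes 17 fell (median -3.18, or -1.97). Aqp1, a water channel of capillary endothelium, read 70.2 and 68.4 against 1589 and 3279 (log2 fold change -4.96, SE 0.44, adjusted p = 0.000506). Ramp2, which forms the adrenomedullin receptor, read 46.6 and 66.2 against 856 and 639.7 (log2 fold change -3.64, adjusted p = 0.000772). Fabp4, the fatty acid carrier of capillaries, adipocytes and some macrophages, read 425 and 400.4 against 6521 and 4101 (log2 fold change -3.63, adjusted p = 0.000506), with 3 of 4 probe sets lower. Of the defining endothelial markers, Kdr read 171 and 161 against 2011 and 996, Cdh5 46.2 and 54.5 against 247 and 289 and Tie1 2.90 and 2.82 against 75.8 and 67.0, and Pecam1 was near 38.4 in both groups (38 and 42.5 against 32.5 and 61.2). Cd93, which monocytes also carry, rose in both probe sets (1.18 and 2.58), and the brighter one lost its call without either transplanted array (1.17 and 1.18).

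Pericyte and smooth muscle genes were low on the transplanted arrays, with a summed intensity of 581 and 616 against 8148 and 8326. Acta2, smooth muscle actin, read 179.6 and 190.4 against 3361 and 3193 (log2 fold change -4.12, SE 0.27, adjusted p = 0.000235). Rgs5, a pericyte regulator of G protein signalling, read 109 and 72.8 against 2190.1 and 2627 (log2 fold change -4.69, adjusted p = 0.000772), with 2 of 3 probe sets lower, and Notch3 fell in both of its own (-3.38 and -2.27). Among fibre genes, Tnnc2, the calcium-binding troponin of fast fibres, read 8.78 and 5.13 against 1329 and 1319.5, at least 31.3-fold lower (log2 fold change -6.94, SE 0.38, adjusted p = 0.000135). Mylpf, the fast regulatory myosin light chain, read 41.5 and 36.6 against 661 and 765 (log2 fold change -4.06, adjusted p = 0.000358). Myh1, a fast myosin heavy chain, fell in both probe sets, at 0.726 and 6.62 against 216 and 211 in the brighter, at least 5.14-fold lower. These 3 fibre transcripts were at similar levels on both resting arrays and under or close to 38.4 on both transplanted arrays. Ckm, muscle creatine kinase, was at 21.4 and 27.5 against 127 and 1296 and Acta1, skeletal actin, at 68.5 and 75.0 against 328 and 800.2. Of 8 satellite and myogenic genes 1 fell (Vcam1 in 1 of 3 probe sets), beside 20.8% of all genes. The summed intensity of the 8 was 269 and 201 against 1048 and 999. Without the first and second transplanted array 11 and 10 fibre genes fell. The part of these cell types in the other results was not tested.

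**Figure D4:**
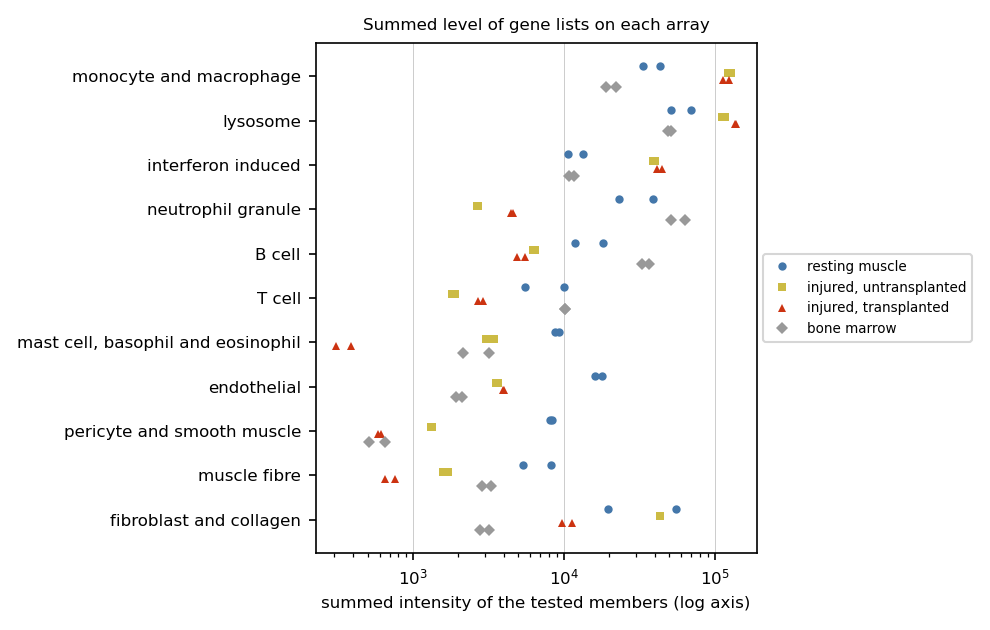
Summed intensity (log axis) of the tested members of 11 gene lists on each of the 8 arrays, 2 points per group: resting muscle (circles), untransplanted injured muscle (squares), transplanted injured muscle (triangles) and bone marrow (diamonds). Macrophage genes sum to 124791 and 114295 on the transplanted arrays against 33696 and 43399 on the resting ones, and mast cell genes to 386 and 306 against 8753 and 9223.

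The count of fibroblast and collagen genes turned on the second resting array. Of 23 tested, 11 fell and 0 rose (median -1.75), but 19 fell without the second resting array, and 6 and 4 without the first and second transplanted array. The median was -0.88 without the first resting array and -2.45 without the second. Their summed intensity was 55216 on the first resting array and 19657 on the second, beside 11245 and 9787 on the transplanted arrays. Col1a2, a chain of type I collagen, read 995 and 856 against 9385 and 4127 (log2 fold change -2.75, SE 0.52, adjusted p = 0.00628), and Col6a2, of type VI collagen, 311 and 208 against 2575 and 1016 (log2 fold change -2.65, adjusted p = 0.00456). Both genes fell in both probe sets, and their 2 resting arrays differed by more than 2-fold. Pcolce, which aids cleavage of procollagen, read 260 and 243 against 1202 and 757 (log2 fold change -1.91, adjusted p = 0.00486), and Sparc, a matrix protein of remodelling tissue, 691 and 687 against 3110 and 1737 (log2 fold change -1.75, adjusted p = 0.0112; -1.75 and -1.74 with no call without either transplanted array). Col3a1 did not pass, at 1716 and 1939 against 7756 and 1402, nor did Dcn, decorin, at 594 and 693 against 7308 and 726, or Pdgfra, at 52.6 and 36.0 against 564 and 53.3. Col1a2, Col3a1 and Col6a2 thus read well above 38.4 on the transplanted arrays.

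The other large agreeing falls came from several kinds of gene. Fmod, fibromodulin, which regulates the width of collagen fibrils, fell in all 6 of its probe sets, at 60.4 and 46.0 against 1660.4 and 936 in the brightest (log2 fold change -4.46, SE 0.40, adjusted p = 0.000519) and -3.85 to -5.63 in the others. Timp4, an inhibitor of matrix proteases, read 6.29 and 1.90 against 1114 and 826, at least 23.0-fold lower (log2 fold change -6.95, adjusted p = 0.00102). Nrep read 14.6 and 23.6 against 1395 and 515, at least 22.6-fold lower. Meox2, a homeobox factor of muscle endothelium and limb muscle, read 15.2 and 23.4 against 576 and 203, at least 9.28-fold lower. In both of these the first resting array was well over 2-fold the second. Hspb1, a small heat shock protein rich in muscle, read 183 and 236 against 2620.4 and 3473 (log2 fold change -3.83, SE 0.34, adjusted p = 0.000483), and Scd1, a fatty acid desaturase of adipocytes and other cells, 48.3 and 53.1 against 1329 and 1541 (log2 fold change -4.71, adjusted p = 0.000455). Serpinb1a, which inhibits neutrophil proteases, read 33.6 and 58.2 against 1642 and 768 (log2 fold change -4.54, adjusted p = 0.000784), and Enpp3, an ectoenzyme of basophils and mast cells, 4.29 and 5.0 against 204 and 112, at least 3.83-fold lower. Of 7 adipocyte genes 3 fell, in which Car3 joined Scd1 and Fabp4 (-3.43), and 2 rose, Pparg (1.93) and Cebpa (2.84), which myeloid cells also use; neither rise was called without either transplanted array.

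Nerve sheath genes included a split gene. Of 5 Schwann cell genes 2 fell, Pmp22 (1399 and 1195 against 3953 and 3095, log2 fold change -1.43) and Mbp (161 and 172 against 354 and 344 in the brightest probe set, -1.05), and neither was called without either transplanted array (-1.55 and -1.32 for Pmp22, -1.01 and -1.10 for Mbp). The brightest probe set of Mbp also missed the threshold after median centring (-0.77) and without either untransplanted array (-1.05). Mbp, myelin basic protein, has 7 tested probe sets, of which 6 fell. The gene also encodes longer proteins, called Golli, which blood cells make. One probe set read 0.941 and 2.74 against 892 and 446 (log2 fold change -6.77, adjusted p = 0.000522), and another 92.8 and 101 against 75.7 and 146 (log2 fold change -0.12, adjusted p = 0.869). The brightest probe set of Mbp thus gave the smallest of the 6 falls.

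Signals of growth and matrix turnover went both ways. Of 24 tested, 7 were higher and 6 lower, beside 10.5% and 20.8% of all genes. Thbs1, described above, had the largest called rise, and with it rose Adam8, a metalloprotease of myeloid cells (3.47), Gdf3, a member of the TGF-beta family that repair macrophages make (283 and 392 against 46.8 and 56.2, log2 fold change 2.61), Timp1 (2.02), Tgfbi (1.28) and both probe sets of Hgf, hepatocyte growth factor (1.91 in the brighter). Mmp14, a membrane metalloprotease, rose in both probe sets (1.28 and 3.79), but the brighter one lost its call without any 1 array other than bone marrow or the second resting one (0.80 to 1.28). Bmp2 fell by 3.71 and Fn1, fibronectin, by 1.85, and the gelatinases Mmp9 and Mmp2 fell in both probe sets each, Mmp2 at 122 and 97.2 against 1372 and 293 in the brighter (log2 fold change -2.50; no call without either transplanted array, at -2.66 and -2.35). The resting arrays of Tgfb1 read 4.98 and 345 against 1193 and 1055 on the transplanted ones (adjusted p = 0.0541). Without the first transplanted array 4 rose, and without the second 3 fell.

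Of 26 immediate early and stress genes 3 rose and 8 fell, beside 10.5% and 20.8% of all genes, and 15 did not pass. Hspa1b, an inducible Hsp70, fell in all 3 probe sets, at 766 and 972 against 4958 and 5133 in the brightest (log2 fold change -2.54, SE 0.52, adjusted p = 0.00869; -2.37 and no call without the first transplanted array) and -3.28 and -3.77 in the others. Its near-identical copy Hspa1a read 777 and 994 against 4146 and 4153 (log2 fold change -2.23, adjusted p = 0.00109), and probes may not separate the pair. The co-chaperones Hsph1 (-2.68) and Dnajb1 (-2.11) fell in their brighter probe sets, with -0.84 and -0.70 and no call in the others. Fos rose by 0.89, while Egr1 fell by 0.85 and Myc by 2.17. Without the first and second transplanted array 0 and 1 rose and 4 and 5 fell, without the second resting array 5 rose, and without either untransplanted array 1 rose.

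Most cell cycle genes did not pass. Of 26 tested, 8 fell, beside 20.8% of all genes, and 1 rose (Mcm6, 1.06), with a median of -0.71. After median centring 2 fell, with the mean of all probe sets 3, and without either transplanted array 1. Mcm2, of the helicase that opens replication origins, read 133 and 101 against 481 and 408 (log2 fold change -1.90, SE 0.31, adjusted p = 0.00377), but its second probe set did not pass (0.26). Aurkb, a mitotic kinase, fell in both probe sets (-1.59 and -1.56), with no call in the brighter after median centring (-1.31) or without any 1 array of the first resting and the 2 transplanted ones (-1.15 to -1.84). Top2a, which untangles DNA, read 231 and 221 against 667 and 429 and lost its call after median centring (-0.95) and without either transplanted array (-1.26 and -1.20). Cdk1, at 135 and 180.2 against 122 and 120.2, and Pcna, at 5271 and 5207 against 4663 and 2596, did not pass.

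Metabolic genes rose in part. Of 22 genes of oxidative phosphorylation 6 were higher and 0 lower (median 0.47, and 0.21 to 0.75 over the alternatives). Sdhb, the iron-sulfur subunit of complex II, read 3918 and 4519 against 969.6 and 1374 (log2 fold change 1.86, SE 0.25, adjusted p = 0.00182), Ndufb9, of complex I, 2315 and 2251 against 719.6 and 771 (log2 fold change 1.61, adjusted p = 0.0035), and Atp5o, of the ATP synthase, rose by 1.41. Cox5b, of complex IV, had 5 probe sets, of which 3 rose (the brightest by 1.09) and the dimmest fell (-1.51). Of 18 genes of glycolysis and hypoxia 4 rose and 3 fell, beside 10.5% and 20.8% of all genes. Tpi1, triosephosphate isomerase, rose in all 3 probe sets, at 2752 and 3103 against 601 and 870.1 in the brightest (log2 fold change 2.01, SE 0.26, adjusted p = 0.00168) and by 1.17 and 1.21 in the others. Pgk1, which acts 2 steps later in the same pathway, fell in its brightest probe set (2299 and 2475 against 5884 and 5359, -1.23) while its other 2 did not pass (0.02 and 0.04). Pdk1, which limits entry of pyruvate into mitochondria, fell in both probe sets (-1.23 and -1.86), but the brighter lost its call without the first resting array (-0.82) or any 1 injured array (-1.15 to -1.31). Without the second resting array 7 glycolysis genes rose, and without the first and second transplanted array 2 and 1 rose and 1 fell. Of 16 ribosomal protein genes 2 rose and 1 fell, beside the same shares of 10.5% and 20.8%, with a median of 0.36. After median centring 7 rose, without the second resting array 5 rose, and after quantile normalization 4 fell and the median was -0.09 (3 fell with the mean of all probe sets).

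To see which of these differences go with the transplant and not with injury alone, the transplanted arrays were also compared directly with the untransplanted injured arrays in the same fit. Whether both injured groups were taken at the same time after injury is not given in the sources used here. Of 16289 probe sets 41 passed (0.252%), 4 higher and 37 lower, with 1425 at an unadjusted p under 0.05. The spread behind this count is shared with the resting arrays, whose weights were 0.36 against 1.82 and 1.98 on the injured arrays. With array weights in the fit 811 passed, so 41 is not an upper limit of the differences between the injured groups. The resting arrays serve both injury comparisons, so the values of each are given side by side and no overlap of their calls is reported. The 41 depended on every array: 0 remained called without any 1 of the 4 injured arrays (unadjusted p under 0.05 for 961 to 1071), 8 without either bone marrow array, and 245 and 268 without the first and second resting array.

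Gzma and Gzmb were 2 of the 4 that were higher. Gzma read 85.1 and 73.8 on the untransplanted arrays (transplanted minus untransplanted log2 4.32, SE 0.37, adjusted p = 0.0123), where it was below resting muscle (untransplanted minus resting -2.19, adjusted p = 0.00605). Gzmb read 138 and 114 there (transplanted minus untransplanted 3.35, SE 0.30, adjusted p = 0.0123; untransplanted minus resting -0.29, adjusted p = 0.49). Rgs1, a regulator of chemokine receptor signalling, read 9588 and 8678 on the transplanted arrays, 3374 and 3289 on the untransplanted and 1766 and 1969 on the resting arrays. Txk, a kinase of T cells, read 53.3 and 86.2, 3.30 and 2.23 and 70.8 and 44.1 in the same order, so it was low on the untransplanted arrays. Rgs1 and Txk were picked after their values were seen. Among the lower ones were the mast cell proteases. Cma1 read 1428 and 1333 on the untransplanted arrays (transplanted minus untransplanted -4.07, SE 0.30, adjusted p = 0.0123) and Cpa3 882 and 766 (-3.82, SE 0.33, adjusted p = 0.0123), far above the transplanted arrays. H2-Eb1 read 9782 and 8611 (-2.36, SE 0.23, adjusted p = 0.0151), Pcolce 1462 and 1494 (-2.54, adjusted p = 0.0357), Tnnc2 121 and 96.6 (-3.38, adjusted p = 0.0291) and Mylpf 239 and 251 (-2.53, adjusted p = 0.0325). For H2-Eb1 and Pcolce the untransplanted arrays were not called against resting muscle (0.38 and 0.63), whereas Tnnc2 and Mylpf had fallen there too (-3.57 and -1.52). Of other genes described above, Fn1 (-1.95, adjusted p = 0.0291), F13a1 (-1.90), H2-Aa (-1.75) and the second probe set of Sparc (-2.24) were also lower with the transplant, and they were picked after their values were seen. H2-Aa read 17131 and 19782 on the untransplanted arrays.

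**Figure D5:**
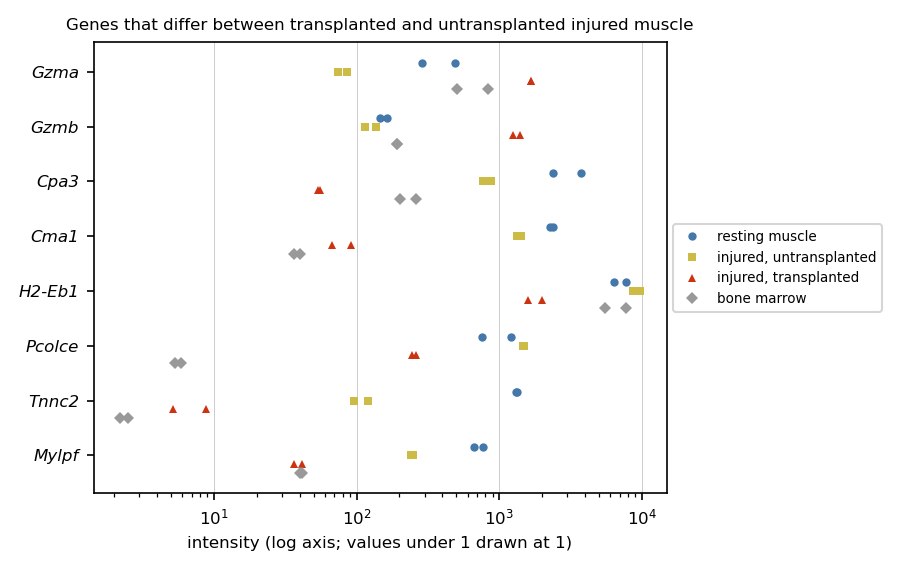
Intensity (log axis) on each of the 8 arrays for 8 genes past the threshold in the direct comparison of transplanted with untransplanted injured muscle, 2 points per group (circles resting, squares untransplanted injured, triangles transplanted injured, diamonds bone marrow). The 2 granzymes lie higher on the transplanted arrays than in any other group, and Cpa3 and Cma1 lie far below both other muscle groups.

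For the genes with the largest agreeing rises the 2 injured groups were set side by side. Thbs1 read 2083 and 2015 on the untransplanted arrays (untransplanted minus resting log2 3.58), Zbp1 1880.3 and 1491 (4.38) and Ncf1 1185 and 1347 (4.06), and the direct test of transplanted against untransplanted gave 0.56, 0.36 and -0.19 (adjusted p = 0.999, 0.927 and 0.999). Gla was 1069 and 1078 and Alcam 307 and 356, lower than with the transplant by 1.01 and 1.47 without passing (adjusted p = 0.282 and 0.156). Retnla read 344 and 306 on the untransplanted arrays (transplanted minus untransplanted -1.66, adjusted p = 0.0677). A p that misses the threshold does not show that the injured groups were alike, with SE of 0.28 to 0.74 for these genes.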

How the data were processed

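CD45+/Sca1+ cells were measured on 8 Affymetrix arrays, 2 in each of 4 groups taken from the sample titles. The authors deposited 1 intensity for each probe set, with GCOS named in the submitters' processing notes, already scaled to nearly the same trimmed mean. No array was left out. Control probe sets (64 of 22690) were removed, and 20380 of the other 22626 had 1 gene in the platform annotation, 691 several and 1555 none, with symbols updated through the gene identifier.

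Values under 1 were set to 1, 4 (the 10th percentile) was added and log2 taken, so fold changes of dim genes are understated. A probe set was tested if at least 2 of 8 arrays reached 38.4, the 40th percentile. The tests used limma 3.58.1 in R 4.3.3 with 1 mean per group, an intensity trend, both directions and Benjamini-Hochberg adjustment over the probe sets, at 0.05. The script was tested on simulated data. Log2 fold changes had a median SE of 0.45, and precision is limited by having 2 arrays per group. Each gene is represented by its brightest probe set, averaged over the 8 arrays.

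Named genes are, for rises and for falls, the 12 genes of largest change whose probe sets all pass one way without overlap of the groups and with the higher group mean no lower than the median intensity, ranked by their weakest probe set, and up to 4 members per list with the smallest p, agreeing genes first. Other list members were named as markers or after their values were seen. The members and lists were chosen with earlier results of these data known. The alternatives were 2 other scalings, 2 pseudocounts, 2 filters, no trend, array weights, 4 arrays only, a replicate block, a fold of 2, the mean of all probe sets and leaving out each array.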

Additional observations from a re-analysis of the deposited data

Results flagged for a closer look

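For 8 of the genes chosen by the naming rule the change from resting muscle differed between the injured groups, in a direct limma test of transplanted minus untransplanted injured muscle (adjusted p under 0.05). Gzma was higher with the transplant by 4.32 on the log2 scale and Gzmb by 3.35. The mast cell proteases Cma1 (-4.07) and Cpa3 (-3.82) were lower with it. The MHC class II gene H2-Eb1 differed by -2.36 and the collagen-processing gene Pcolce by -2.54. The fast fibre genes Tnnc2 (-3.38) and Mylpf (-2.53) were also lower with the transplant. With 1 of the 4 injured arrays left out, no probe set passed in this comparison, at 961 to 1071 with an unadjusted p under 0.05.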

How the results depend on the processing

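The uncalled Ptprc (0.06) ranged from -0.39 to 0.34 under the alternatives run, and the uncalled, sex-linked Uty (0.41) from -0.31 to 1.13. No called gene among the 124 named reversed direction, of which the filter at the 60th percentile covered 119. Without the first or the second transplanted array 25 and 20 of them lost their call, with the 4 compared arrays alone 12, with array weights 8 and after median centring 7. The 2268 higher probe sets became 1362 with the 4 compared arrays alone and 958 to 3423 when 1 array was left out. The 3015 lower ones became 1783 with array weights, 1649 with the 4 arrays and 1444 to 3321 with 1 array left out. Genes with all probe sets higher, 119, became 191 after median centring, 60 with the 4 arrays and 28 to 261 with 1 array left out. Genes with all probe sets lower, 172, became 113 after median centring, 84 with array weights, 76 with the 4 arrays and 64 to 216 with 1 array left out. The 41 probe sets that differed between the injured groups became 9 after quantile normalization, 24 after median centring, 62 with the pseudocount at the 25th percentile, 811 with array weights and 0 to 268 with 1 array left out, and the 4 arrays alone give no value for them. The cause of these shifts was not tested. The fits that leave arrays out hold fewer arrays, yet several counts rose when a resting array was left out.

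Replicate numbers were not taken to pair the arrays: deviations of same-numbered arrays correlated at -0.0065 for resting and transplanted muscle, 0.31 for bone marrow and resting muscle and -0.03 to 0.003 for the other pairs of groups. With the replicate block 2348 probe sets were higher and 3055 lower than in resting muscle, 131 and 179 genes agreed, and 15 probe sets differed between the injured groups. Where a group is left with 1 array, that array is assumed to vary like the other groups, although the array weights differed between the groups. Dim probe sets, near 38.4, carry the least precise fold changes. Among the 4 sex-linked genes tested, 1 was lower, Xist (-1.32), and its call was lost in 13 alternatives. These included quantile normalization (-1.07), median centring (-1.04), no filter, array weights, the 4 compared arrays alone and leaving out any 1 array. Its log2 fold change ran from -1.49 to -1.04 over the alternatives.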
